A study of Mus musculus with 12 samples.

Results

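Potassium channel genes were followed in neurons of the mouse basolateral amygdala (BLA) after an aversive or a rewarding experience. A gene was taken as a member where a probe set with 1 gene symbol carried a symbol made of Kcn, the letters of a subfamily and a number. This gave 85 genes and 174 probe sets, of 20752 genes and 38130 probe sets with 1 symbol. The shock group was mice given footshocks, and the female group was mice exposed to a female mouse. Both groups carried PABPC1-FLAG in the BLA, a tagged protein that holds mRNA by its poly(A) tail, driven by the activity-dependent fos promoter, and the RNA came from pulling down the tag. There were 3 Affymetrix arrays in the shock group and 3 in the female group, and the 12 samples are these 6 arrays processed by RMA and by MAS5. Each sample pooled 2 mice, and the design gives 3 mice in a group, so whether arrays of 1 group share a mouse is not known. The p-values therefore measure the spread between these arrays, which may be technical. The sources used here give no strain, sex or age.

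Potassium channels let potassium leave the cell, which ends the action potential, sets the resting potential and limits how often a neuron fires. Voltage-gated channels are tetramers of pore subunits (Kcna, Kcnc, Kcnd, Kcnh, Kcnq), which silent subunits (Kcnf, Kcng, Kcns, Kcnv) and auxiliary subunits (Kcnab, Kcne, Kcnip) modify. Other families open with intracellular calcium or sodium (Kcnma, Kcnn, Kcnt), pass current best inward and set the resting potential (Kcnj), or leak at all voltages (Kcnk). In the amygdala, as elsewhere in the forebrain, these conductances set the excitability and the spike pattern of principal cells and interneurons.

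RMA values, on the log2 scale, had medians of 6.92 to 6.96 over the arrays, and n below is the number of arrays, which limits the precision of every value. Female replicate 2 stood apart, correlating at 0.974 and 0.977 with the other female arrays, against 0.991 to 0.993 among the shock arrays. The arrays also differed in their 5' to 3' signal, taken for each array as the median over 2751 genes of the value at the 5'-most probe set less that at the 3'-most. It was -0.99, -0.83 and -0.90 (log2) in shock and -0.72, -0.47 and -0.74 in female, so the groups did not overlap. All 6 listed neuron markers lay above the filter on dim probe sets, and 2 of them were lower in shock by limma, Tubb3 (-0.77, adjusted p = 0.00732) and Stmn2 (-0.42, adjusted p = 0.0316). Of 6 excitatory markers Slc17a7 (-0.98) and Camk2a (-0.47) were lower and Slc17a6 (0.49) was higher. Of 4 markers of the central amygdala, a neighbouring nucleus, Nts (0.84) and Crh (0.67) were higher, while Prkcd was at -1.03 (adjusted p = 0.0598). Markers of other cells were also present, with an average level over 6 oligodendrocyte genes of 10.37 to 10.65 in shock and 10.74 to 11.32 in female (log2) and over 6 vascular genes of 7.22 to 7.28 in shock and 7.51 to 7.62 in female. None of the oligodendrocyte or vascular markers tested had a difference above 0, and none of the oligodendrocyte markers lay below the filter. What these shifts contribute to any result below was not tested. Fewer cells of a type and less RNA per cell cannot be told apart in such samples.

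A minority of the potassium channel genes differed between shock and female, and with all arrays weighted equally most of those that did were lower in shock. Differences are given as shock minus female in RMA values (log2), with adjusted p from limma over all 27022 tested probe sets and a threshold of 0.05. Of the 60 genes whose representative probe set passed the filter, 9 were lower in shock, 2 were higher and 49 did not pass. These are 15% lower and 3.33% higher, beside 9.40% and 10.6% of the 13203 genes tested in all. Together 18.3% of the potassium channel genes passed, beside 20.0% of all genes, so their overall share lies near the background. Among the 9 lower genes were Kcnn1, Kcnj9, Kcnip3, Kcnk3, Kcnc4, Kcnab2, Kcnj11 and Kcna6, and the 2 higher genes were Kcnt2 and Kcnu1. A further 6 genes had an adjusted p between 0.05 and 0.10, and 5 of these had a difference above 0. The median difference was 0.03 over the 60 genes and 0.06 over all tested genes. The count moved with single arrays and with other settings. They were 0, 2 and 4 without shock replicates 1, 2 and 3, where 1.17%, 4.96% and 4.48% of all genes passed. They were 14, 11 and 5 without female replicates 1, 2 and 3, where 24.6%, 20.2% and 12.6% of all genes passed. On MAS5 values as log2(value + 16) 1 of the 60 passed, beside 1.95% of all genes, and as log2(value + 1) none did, beside 0.985%. With array weights 17 passed, 7 higher and 10 lower, beside 32.1% of all genes, and with the replicate number as a block 14 did, 5 higher and 9 lower, beside 25.6%.

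**Figure D1:**
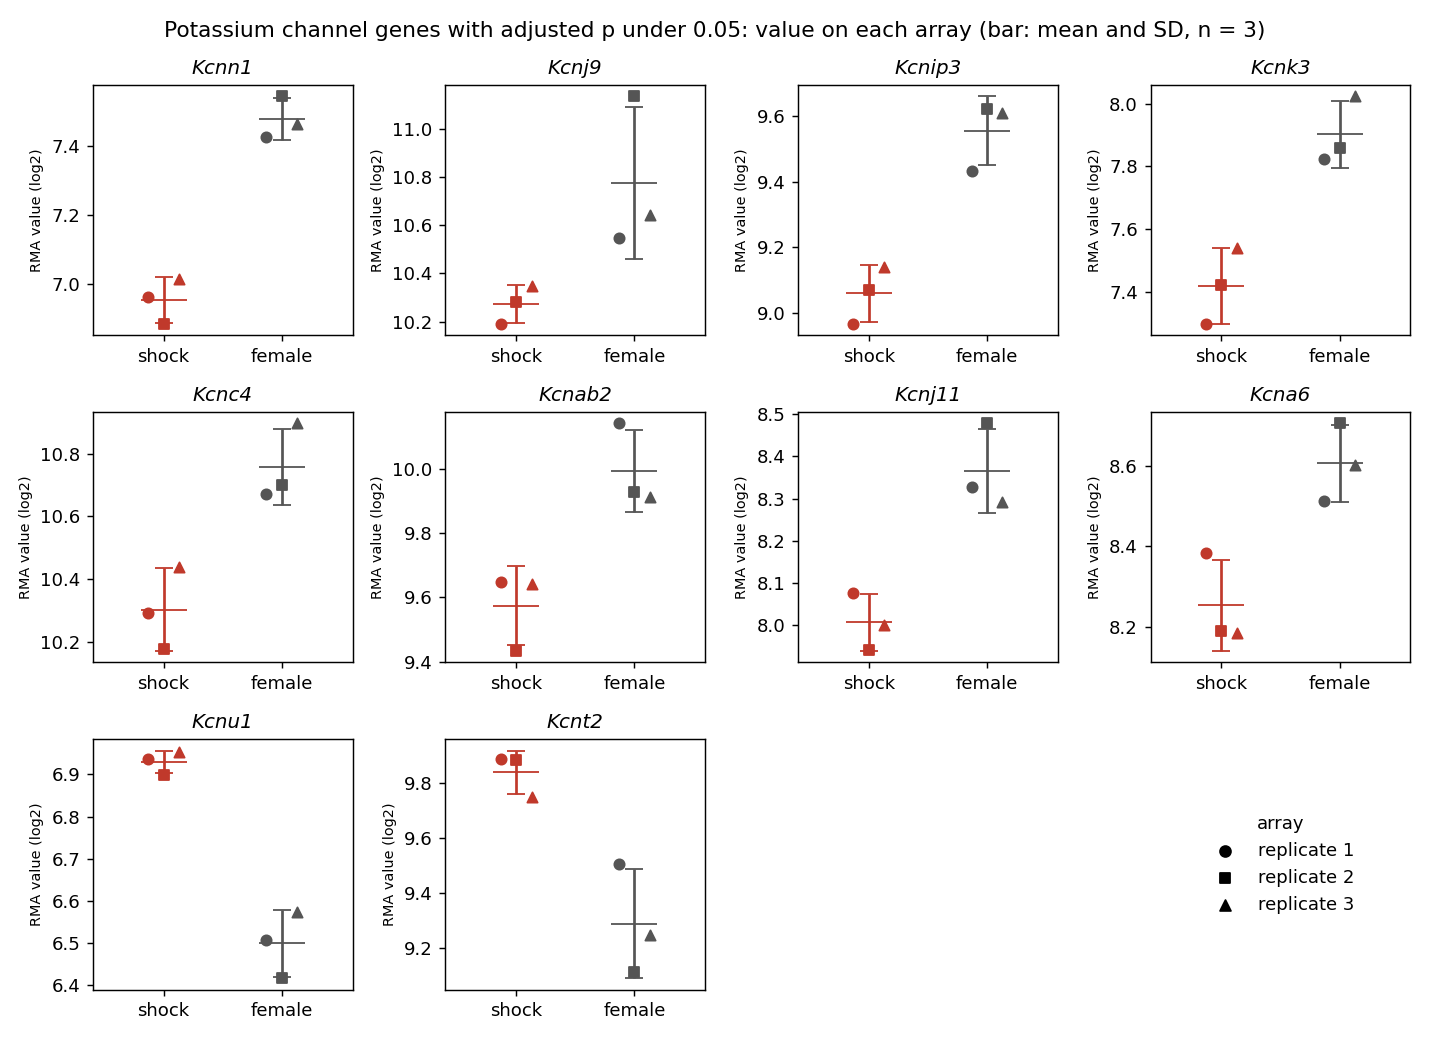
RMA value (log2, vertical axis, scaled for each gene) of 10 potassium channel genes with an adjusted p under 0.05, on each shock and female array. Points are arrays, and bars are means with SD (n = 3). In each panel the 3 shock arrays lie apart from the 3 female arrays, below them in 8 genes and above them in Kcnu1 and Kcnt2.

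The promoters of genes that passed are shown because they are the control regions of the genes that differed, as 300 bases around the annotated start. RefSeq (GRCm38.p6) had an entry for 62 of the 85 genes. Of the genes that passed, Kcnk3, Kcnj11 and Kcnu1 were among those with none, and Kcnn1, Kcnip3 and Kcnab2 had several. The 4 with a single entry are printed 5' to 3' on the gene's strand, Kcnt2 at chr1:140245468-140245767 (plus strand), Kcnj9 at chr1:172329273-172329572 (minus), Kcnc4 at chr3:107458849-107459148 (minus) and Kcna6 at chr6:126740625-126740924 (minus). Capitals mark matches, on either strand, to the half-site TGACG of the cAMP response element, which binds the activity-regulated factor CREB, to the AP-1 site TGANTCA bound by Fos and Jun, and to the GC box GGGCGG.
Kcnt2: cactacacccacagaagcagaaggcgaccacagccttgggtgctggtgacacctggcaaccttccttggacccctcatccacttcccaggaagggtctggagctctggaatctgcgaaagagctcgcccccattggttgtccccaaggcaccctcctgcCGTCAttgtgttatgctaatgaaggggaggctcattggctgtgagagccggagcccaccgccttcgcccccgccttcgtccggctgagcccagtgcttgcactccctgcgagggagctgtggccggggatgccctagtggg
Kcnj9: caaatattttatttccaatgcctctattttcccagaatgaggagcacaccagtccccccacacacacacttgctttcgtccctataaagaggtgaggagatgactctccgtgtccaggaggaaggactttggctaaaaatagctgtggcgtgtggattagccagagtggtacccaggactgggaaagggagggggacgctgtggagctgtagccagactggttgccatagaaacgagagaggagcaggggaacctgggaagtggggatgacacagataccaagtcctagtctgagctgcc
Kcnc4: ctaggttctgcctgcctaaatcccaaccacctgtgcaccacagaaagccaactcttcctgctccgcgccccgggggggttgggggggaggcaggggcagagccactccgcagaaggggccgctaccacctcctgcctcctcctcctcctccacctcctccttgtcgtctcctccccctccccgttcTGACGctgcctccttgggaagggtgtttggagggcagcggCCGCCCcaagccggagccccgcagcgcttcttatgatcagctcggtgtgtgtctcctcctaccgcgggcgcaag
Kcna6: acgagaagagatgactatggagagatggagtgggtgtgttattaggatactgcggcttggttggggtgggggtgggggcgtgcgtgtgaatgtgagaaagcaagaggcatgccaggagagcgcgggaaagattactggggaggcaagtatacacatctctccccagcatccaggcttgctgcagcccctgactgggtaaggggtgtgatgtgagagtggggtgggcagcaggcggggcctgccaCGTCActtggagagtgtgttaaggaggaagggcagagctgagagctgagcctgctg
The half-site occurs in Kcnt2, Kcnc4 and Kcna6, and the GC box in Kcnc4, while Kcnj9 has no match to these letters. Over 87 promoters of potassium channel genes, 17.2% held the half-site, beside 20.8% of 32851 promoters of all genes. AP-1 letters were in 4.60% and 7.81%, and the GC box in 48.3% and 35.7%. The full element TGACGTCA, which contains the half-site, was in 0 of the 87 and in 1.79% of all. Potassium channel promoters had a median GC content of 58.0%, beside 52.7% in all promoters.

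Among the voltage-gated pore genes, 3 of 22 tested were lower in shock, Kcnc4 and Kcna6 among them, none was higher and 19 did not pass. The 3 are 13.6%, beside 9.40% of all tested genes lower and 10.6% higher. Their median was 0.04, beside 0.06 over all tested genes. Kcnc4, a pore gene whose channels inactivate fast, had 10.29, 10.18 and 10.44 in shock and 10.67, 10.70 and 10.90 in female (chromosome 3, positions 107438301 to 107458925, minus strand; the files name no genome build). The groups did not overlap, and the difference was -0.45 with a standard error of 0.11 (adjusted p = 0.0246). In the same subfamily Kcnc1 was at 0.02 and Kcnc2 at 0.32 (adjusted p = 0.878 and 0.0677), so its genes lay on both sides of 0. Kcnc2, which is prominent in fast-spiking interneurons, had 11.16, 11.19 and 11.13 in shock and 10.98, 10.63 and 10.91 in female, without overlap. Markers of inhibitory neurons went in both directions, with 4 of 6 above 0. Pvalb was lower at -0.69 (adjusted p = 0.0163), and Vip at 0.86 (adjusted p = 0.0184) and Gad1 at 0.39 (adjusted p = 0.0306) were higher. Their part in the Kcnc values was not tested.

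Kcna6, a Shaker-related subunit of axonal channels, was lower in shock by 0.35 with a standard error of 0.11 (adjusted p = 0.0425). It had 8.38, 8.19 and 8.19 in shock and 8.51, 8.71 and 8.60 in female (chromosome 6, positions 126708330 to 126735920, minus strand), with shock replicate 1 closest to the female arrays. On MAS5 values as log2(value + 16) the difference was -0.77 (limma adjusted p = 0.0420). The other Kcna genes did not pass and ranged from -0.17 for Kcna1 to 0.44 for Kcna2. Kcna2, whose subunit clusters along the axon, had 10.59, 10.42 and 10.67 in shock and 10.31, 9.76 and 10.29 in female, and its adjusted p was 0.0656. Female replicate 2 was the lowest of the 6 arrays by a wide margin.

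All 3 genes of the A-type Kcnd subfamily, which carry the fast current that delays firing in dendrites, had differences above 0 at their representatives, 0.19 for Kcnd1, 0.20 for Kcnd2 and 0.31 for Kcnd3, and none passed. In each of them the 3 shock arrays lay above the 3 female arrays. Non-overlap was common, at 48.7% of all tested genes and 45.0% of the 60 potassium channel genes, 13 with shock higher and 14 with shock lower. Among the Kcnq genes, whose channels carry the slow current that muscarinic receptors close, Kcnq3 was at -0.03 and Kcnq5 at 0.45, neither passing. Kcnq5 had 10.37, 10.02 and 10.48 in shock and 10.19, 9.24 and 10.10 in female, so its groups overlapped and female replicate 2 alone lay far below (adjusted p = 0.168). Of the 4 tested Kcnh genes, related to the ether-a-go-go channel of the fly, Kcnh1 was at 0.26 and the other 3 lay between -0.10 and -0.07, none passing.

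**Figure D2:**
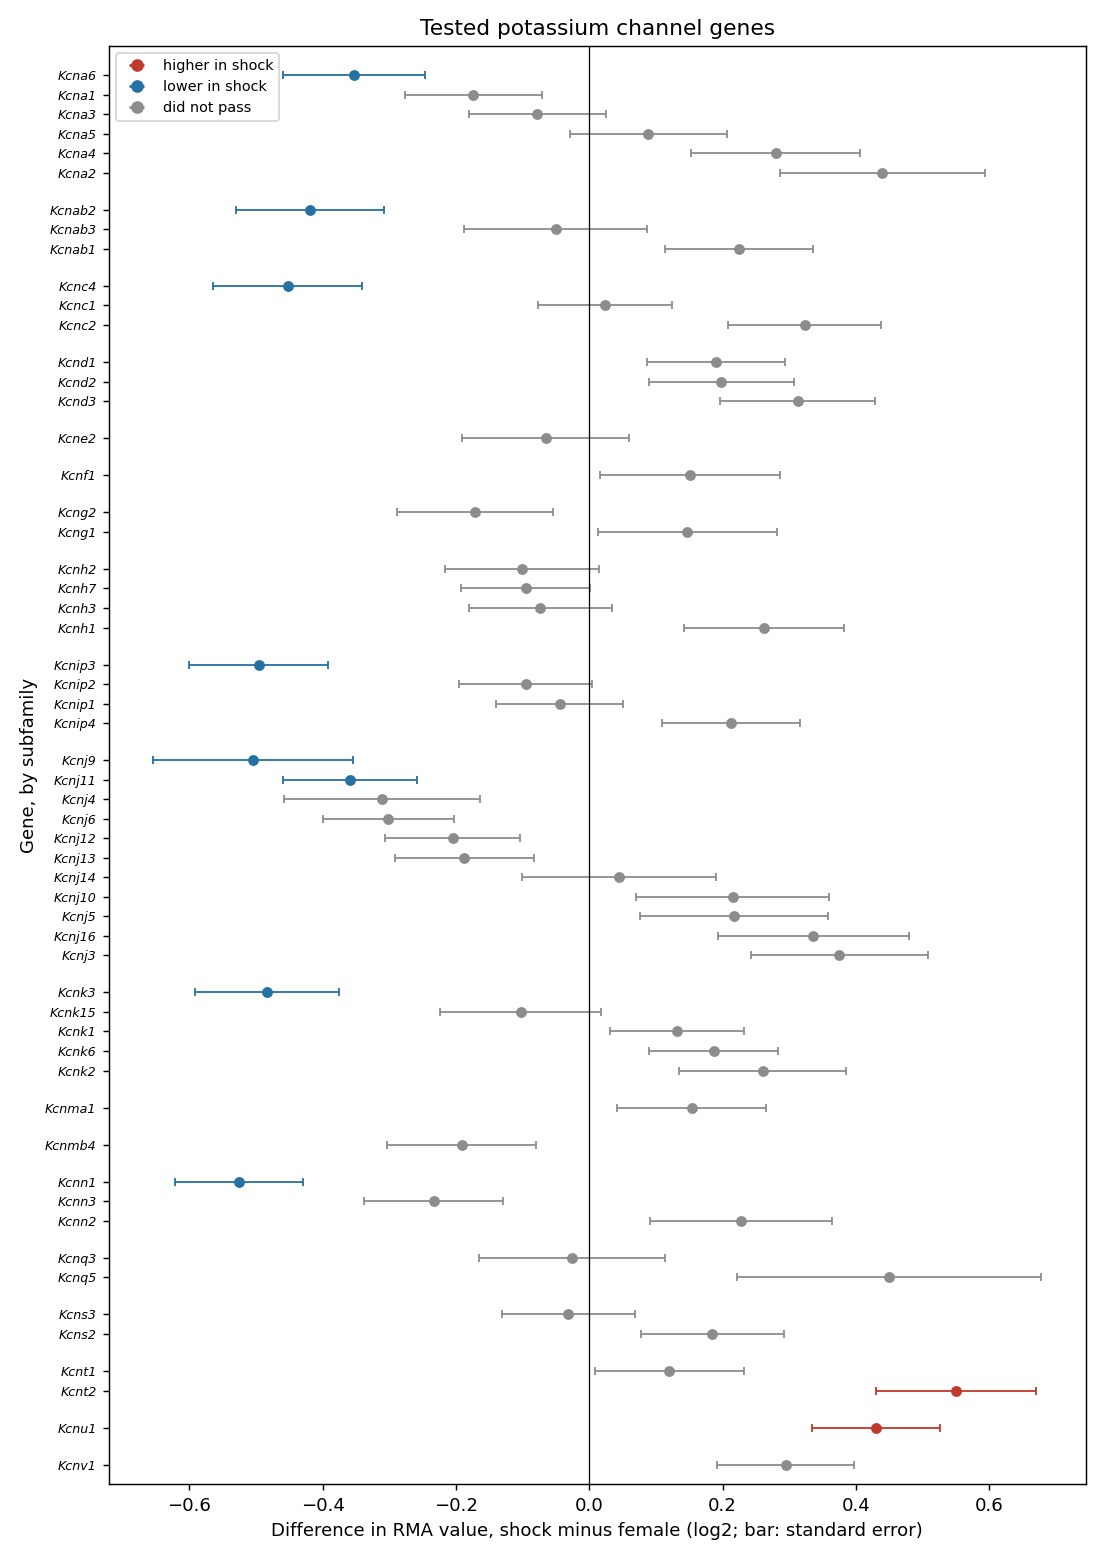
Difference in RMA value between shock and female (log2, shock minus female, with standard error) for 56 of the tested potassium channel genes, grouped by subfamily. Colour gives the limma call. Most subfamilies with several genes have members on both sides of 0, and 8 of the genes drawn are lower and 2 higher in shock.

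Of the 9 auxiliary subunit genes tested, 2 were lower in shock, none was higher and 7 did not pass. The 2 are 22.2%, beside 9.40% of all genes lower and 10.6% higher. The median was -0.07, beside 0.06 over all genes. Kcnip3 encodes a calcium sensor, also known as DREAM or calsenilin, that assists A-type channels and can repress transcription. It had 8.97, 9.07 and 9.14 in shock and 9.43, 9.62 and 9.61 in female (chromosome 2, positions 127456497 to 127521370, minus strand). Shock and female arrays did not overlap, and the difference was -0.50 with a standard error of 0.10 (adjusted p = 0.0151). The related Kcnip genes did not pass at their representatives, with -0.10 for Kcnip2, -0.04 for Kcnip1 and 0.21 for Kcnip4.

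Kcnab2, which encodes a cytoplasmic beta subunit of Shaker-related channels, had 9.65, 9.43 and 9.64 in shock and 10.14, 9.93 and 9.91 in female (chromosome 4, positions 152390743 to 152477492, minus strand). The difference was -0.42 with a standard error of 0.11 (adjusted p = 0.0301), and the groups did not overlap. On MAS5 intensities the groups overlapped, with 863, 1323 and 1373 in shock and 1359, 1731 and 1789 in female. The other beta subunit genes were at 0.22 (Kcnab1) and -0.05 (Kcnab3), neither passing. Kcnmb4, the beta subunit of large-conductance calcium-activated channels in neurons, was at -0.19 (adjusted p = 0.223), and Kcne2 was at -0.07.

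Inward rectifier genes had a median difference of -0.19, beside 0.06 over all genes. Of 11 tested 2 were lower in shock, none was higher and 9 did not pass. The 2 are 18.2%, beside 9.40% of all genes lower and 10.6% higher. Kcnj9 encodes a subunit of the channels that G protein-coupled receptors open. It had 10.19, 10.28 and 10.35 in shock and 10.55, 11.14 and 10.64 in female (chromosome 1, positions 172321325 to 172329299, minus strand). Female replicate 2 was the highest. Without it the difference was -0.32 and still passed (limma adjusted p = 0.0350), beside -0.50 with all arrays (standard error 0.15, adjusted p = 0.0414). The linear MAS5 intensities overlapped, with 2637, 1925 and 1951 in shock and 2233, 3178 and 2306 in female, and gave -0.24 as log2(value + 16) (limma adjusted p = 0.472). These Kcnj9 values are from a probe set 820 bases upstream of the gene's most 3' tested one, by the 3' ends of the annotated positions. That most 3' probe set was at -0.12 and did not pass (adjusted p = 0.387). The partner subunits did not pass, and their differences had both signs, -0.30 for Kcnj6 (adjusted p = 0.0546), 0.38 for Kcnj3 (adjusted p = 0.0677) and 0.22 for Kcnj5. Kcnj6 had 8.87, 9.06 and 9.02 in shock and 9.27, 9.29 and 9.30 in female, and Kcnj3 had 10.69, 10.43 and 10.57 in shock and 10.32, 9.92 and 10.33 in female. In neither did the groups overlap. Kcnj6 is the gene just outside the threshold and Kcna6 the one just inside it.

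Kcnj11, the pore of the ATP-sensitive channel that links metabolism to excitability, was lower in shock by 0.36 with a standard error of 0.10 (adjusted p = 0.0355). It had 8.077, 7.942 and 8.002 in shock and 8.327, 8.478 and 8.292 in female (chromosome 7, positions 46097122 to 46098257, minus strand), without overlap. Abcc8, the gene of its sulfonylurea-binding partner, was at 0.16 (adjusted p = 0.283). Kcnj10 and Kcnj16, which form the main potassium uptake channel of astrocytes, were at 0.22 and 0.34, and neither passed (adjusted p = 0.287 and 0.111). Kcnj10 had 9.378, 9.089 and 9.003 in shock and 9.216, 8.805 and 8.803 in female, so its groups overlapped. None of 6 astrocyte markers passed, and their average level was 10.54 to 10.67 in shock and 10.40 to 10.81 in female.

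The genes of calcium- or sodium-activated channels were grouped with Kcnu1, a relative of Kcnma1 in sequence. Of 7 tested, 2 were higher in shock, 1 was lower and 4 did not pass (median 0.15, beside 0.06 over all genes). These are 28.6% higher and 14.3% lower, beside 10.6% and 9.40% of all genes. One of the 2 higher genes was Kcnu1 itself. Kcnt2 encodes a sodium-activated channel that opens after bursts of firing. It had 9.89, 9.88 and 9.75 in shock and 9.51, 9.11 and 9.25 in female (chromosome 1, positions 140611767 to 140612063, plus strand). The groups did not overlap, and the difference was 0.55 with a standard error of 0.12 (adjusted p = 0.0172). On the linear MAS5 intensities of the same arrays they did overlap, with 1022, 1597 and 1463 in shock and 1336, 1019 and 1115 in female. Its relative Kcnt1 was at 0.12 and did not pass (adjusted p = 0.439).

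Kcnu1, known in mouse as the pH-sensitive potassium channel of sperm, was higher in shock by 0.43 with a standard error of 0.10 (adjusted p = 0.0181). Its RMA values were 6.94, 6.90 and 6.95 in shock and 6.51, 6.42 and 6.57 in female (chromosome 8, positions 25849627 to 25937933, plus strand), not far above the filter of 6.31. It was one of 11 tested members with a mean under 7. Kcnn1, a small-conductance calcium-activated channel that shapes the pause after a spike, had 6.96, 6.88 and 7.01 in shock and 7.43, 7.55 and 7.46 in female (chromosome 8, positions 70843157 to 70855585, minus strand). Its groups lay well apart, with a difference of -0.53 and a standard error of 0.10 (adjusted p = 0.0103). A second Kcnn1 probe set with the same annotated positions was nearly as bright, with a mean of 7.19 beside 7.22 for the representative. There the groups overlapped, and the difference was -0.12 (adjusted p = 0.396). The other small-conductance genes did not pass, at -0.23 for Kcnn3 and 0.23 for Kcnn2. Kcnma1, the pore of the large-conductance channel, was at 0.15 (adjusted p = 0.322).

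Of 5 tandem-pore leak channel genes tested, 1 was lower in shock, none was higher and 4 did not pass. The 1 gene is 20.0%, beside 9.40% of all genes lower and 10.6% higher. The median was 0.13, beside 0.06 over all genes. Kcnk3, whose channel leaks at rest and closes in acid, had 7.30, 7.42 and 7.54 in shock and 7.82, 7.86 and 8.02 in female (chromosome 5, positions 30588205 to 30625270, plus strand). The difference was -0.48 with a standard error of 0.11 (adjusted p = 0.0184), and the groups did not overlap. Kcnk2, a leak channel that stretch and lipids open, was at 0.26 (adjusted p = 0.148), and Kcnk1 at 0.13, neither passing. None of the 6 tested silent subunit genes passed, beside 20.0% of all genes. They ranged from -0.17 for Kcng2 to 0.29 for Kcnv1, and Kcnf1, Kcng1 and Kcns2 were at 0.15, 0.15 and 0.18.

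Without a shock array or female replicate 3, fewer of the genes passed and the share of all genes that passed was also lower, as given above, so a lost call does not rank the genes. Their differences in the 6 fits that left out an array are given beside the number of those fits in which they passed. Kcnn1 passed in 5 of 6 such limma fits, with differences of -0.56 to -0.49 and an adjusted p of 0.0596 without shock replicate 1. Kcnip3 passed in 4 (-0.56 to -0.45). Kcnk3 (-0.54 to -0.42), Kcnt2 (0.46 to 0.66) and Kcnu1 (0.39 to 0.47) passed in 3. Kcnc4 (-0.52 to -0.38), Kcnj11 (-0.40 to -0.30) and Kcnj9 (-0.62 to -0.32) passed in 2, and Kcna6 (-0.42 to -0.30) and Kcnab2 (-0.46 to -0.35) in 1. Of these 10 genes only Kcnn1 passed without shock replicate 2, and none did without shock replicate 1. The highest adjusted p was 0.1496, for Kcnj9.

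Several genes are measured by more than 1 probe set, and these often differed. Over all probe sets of the potassium channel genes, 6 of 121 tested were higher in shock and 23 were lower, beside 9.31% and 11.5% of all tested probe sets. The groups did not overlap at 57 of the 121, beside 47.7% of all. Of 34 genes with more than 1 tested probe set, 9 had a representative that passed, and in Kcnab2, Kcnc4 and Kcnip3 another probe set also passed in the same direction, at -0.84, -0.54 and -0.70. The other probe sets of Kcna6 (-0.28), Kcnj11 (-0.22), Kcnn1 (-0.12), Kcnj9 (-0.12) and Kcnk3 (-0.11) had the same sign and did not pass. Kcnt2 and Kcnu1 had no other tested probe set.

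In 10 genes the representative did not pass but another probe set did, and these genes were chosen for mention after their values were seen. Lower in shock at another probe set were, among others, Kcnip2 (-0.74), Kcnc1 (-0.65), Kcnh3 (-0.65 and -0.49) and Kcnh1 (-0.35), while Kcnd2 (0.75), Kcnv1 (0.61) and Kcnma1 (0.40) had a higher one. The Kcnd2 probe set had 9.89, 9.65 and 9.80 in shock and 9.40, 8.37 and 9.32 in female, so that female replicate 2 lay far below the rest.

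**Figure D3:**
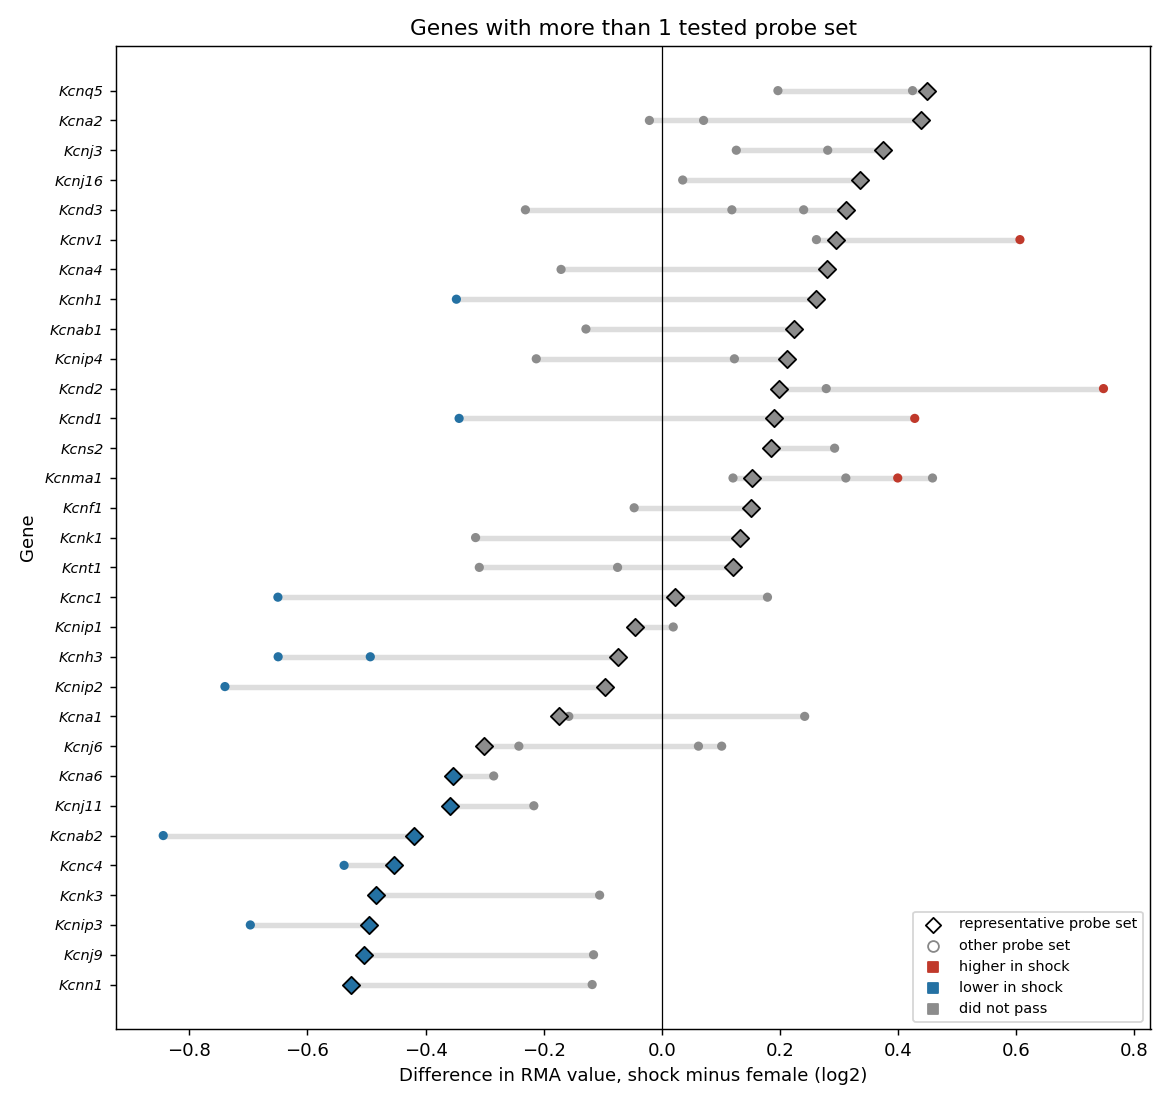
Difference between shock and female (log2, shock minus female) at each tested probe set of 31 potassium channel genes with more than 1. Diamonds are representatives, circles are other probe sets, and colour gives the limma call. Probe sets of 1 gene are often spread widely, and Kcnd1 has calls in both directions.

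Kcnd1 was the only gene called in both directions. Its probe set nearest the 3' end was higher in shock by 0.43, with 7.43, 7.22 and 7.28 in shock and 7.04, 6.64 and 6.96 in female (adjusted p = 0.0389). The most 5' one was lower at -0.34, with 6.92, 6.94 and 6.92 in shock and 7.13, 7.38 and 7.31 in female (adjusted p = 0.0417). It lay 1774 bases upstream by the 3' ends of the annotated positions. Neither pair of groups overlapped. This order was common among the potassium channel genes. In 17 of 21 genes with probe sets 500 to 20000 bases apart, the most 5' one had the lower difference, or 81.0%, beside 78.0% of 2751 genes in all. The median of 5' minus 3' was -0.39, beside -0.28 in all genes. Among the 4 exceptions were Kcnk3, Kcnj11 and Kcns2, of which Kcnk3 and Kcnj11 were lower in shock at their most 3' probe set. The 5' to 3' signal of the arrays, given above, is computed from such probe sets and restates this difference. With that signal as a covariate none of the 60 genes passed limma, and of all 13203 genes 0 passed. Between this signal and the group, 0.644 of the variance is shared, and the effects of both cannot be told apart over that share. The differences were then -0.47 for Kcnn1, -0.56 for Kcnc4, -0.04 for Kcnj9 and 0.35 for Kcnt2.

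**Figure D4:**
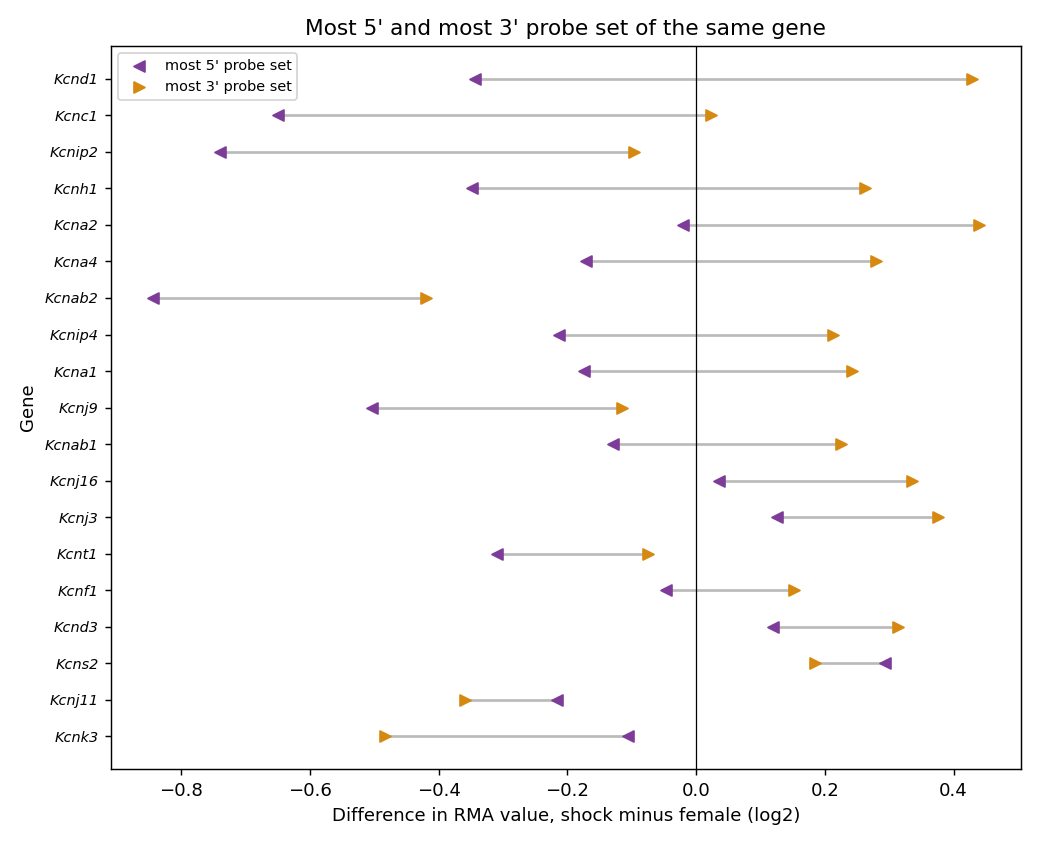
Difference between shock and female (log2, shock minus female) at the most 5' and the most 3' tested probe set of 19 potassium channel genes, for probe sets 500 to 20000 bases apart. In 16 genes the 5' probe set lies left of the 3' one, and the 3 others are Kcnk3, Kcnj11 and Kcns2.

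Genes lower in shock were shorter than the 2 genes that were higher. By RefSeq the 9 lower genes spanned 3.8 to 86.8 kb with a median of 22.5 kb, and Kcnu1 and Kcnt2 spanned 89.3 and 368.4 kb. Over all genes the medians were 12.2 kb for those lower in shock and 50.5 kb for those higher. Of the 20 longest of the 60 genes, 14 had a difference above 0 with a median of 0.22, and of the 20 shortest 8 did with a median of -0.07. In all tested genes of the same length ranges the medians were 0.19 and -0.03. Across the 60 genes the difference and the log of the length correlated at 0.318 (Pearson) and 0.349 (Spearman), beside 0.287 and 0.298 across 11624 genes with a length. These are descriptions across genes, which share the same 6 arrays.

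**Figure D5:**
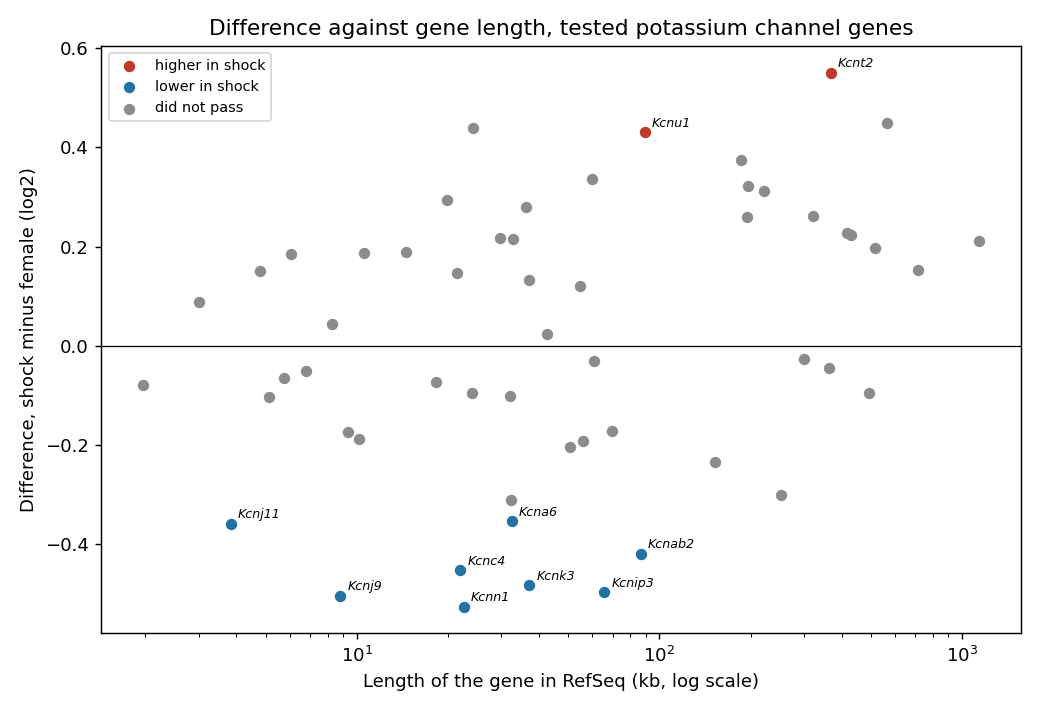
Difference between shock and female (log2, shock minus female) against the length of the gene in RefSeq (kb, log scale) for 56 of the tested potassium channel genes. Named points passed limma. Genes called lower in shock lie at 86.8 kb or below, and those called higher at 89.3 kb and 368.4 kb.

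Genes that act with these channels were read from lists of partners and of potassium pumps and cotransporters. Of 30 channel partners tested, 5 were higher in shock (16.7%, beside 10.6% of all genes), 3 were lower (10%, beside 9.40%) and 22 did not pass, with a median of 0.15, beside 0.06 over all genes. Dpp10, an auxiliary subunit of A-type channels, was higher by 0.55 (9.94 ± 0.14 in shock and 9.39 ± 0.11 in female, SD, n = 3; limma adjusted p = 0.0137), while its relative Dpp6 was at 0.02 and did not pass. The other 4 higher were Nedd4l (0.40), a ubiquitin ligase of channels, Cntnap2 (0.39), which gathers Shaker-related channels beside nodes of Ranvier, Adam23 (0.38) and Rgs7 (0.36), a regulator of G protein signalling at inward rectifiers. Gnb2, a G protein beta subunit, was lower at -0.89 (7.82 ± 0.09 in shock and 8.71 ± 0.19 in female, SD, n = 3; limma adjusted p = 0.00462), as were Snx27 (-0.57), which sorts inward rectifiers in endosomes, and Csnk2b (-0.35), a casein kinase subunit.

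Of 16 genes of pumps and cotransporters tested, 3 were lower in shock (18.8%, beside 9.40% of all genes), none was higher and 13 did not pass, with a median of -0.08. The 3 encode subunits or regulators of the sodium-potassium pump. Fxyd7, a regulator found in neurons, was at -0.69 (adjusted p = 0.0194), Fxyd1 at -0.58 (adjusted p = 0.0308) and the glial beta subunit gene Atp1b2 at -0.42 (adjusted p = 0.0415). The chloride exporter gene Slc12a5 (0.08) did not pass.

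The 25 potassium channel genes below the filter, among them Kcnj2, Kcnj8, Kcnq1, Kcnk10 and Kcnh5, had mean RMA values of 2.95 to 6.27. Tested without a filter, none of them passed limma, with differences between -0.49 and 0.42. Among the 60, Kcnj4 was the 1 gene with a group mean below the filter, in shock. In the authors' deposited table no probe set has an FDR under 0.05, the smallest being 0.0810, and the smallest among the 60 genes is 0.122, for Kcnn1. That table gives a fold of female against shock, negative where shock is higher, of 1.43 for Kcnn1, 1.47 for Kcnip3, -1.53 for Kcnt2 and -1.35 for Kcnu1.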

How the data were processed

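From each array the authors deposited log2 values made by RMA and linear intensity values made by MAS5, per the submitters' processing notes. No software version or genome build is named in the sources used here. The comparison tables hold log2 averages, a signed fold as a score, a p-value of an analysis of variance and its FDR, per the file headers.

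Symbols and positions came from the deposited RMA table. Probe sets of a gene were ordered 5' to 3', and their distances taken, by the 3' ends of these positions. Some positions span much of a gene, so where the probes lie within it is not known. Leaving out 64 controls among 45101 probe sets, tests ran on the 27022 with an average over the arrays above 6.31, the 40th percentile. Shock was compared with female by limma 3.58.1 in R 4.3.3 (lmFit, eBayes; group as the only term), 2-sided, with Benjamini-Hochberg adjustment over all tested probe sets. Every adjusted p is from that fit unless the authors' table or another setting is named. The probe set with the highest average stood for a gene, an _x_at one only where no other existed. MAS5 values entered as log2(value + 16), or log2(value + 1). Adding 16 understates folds of dim probe sets more than adding 1. Further alternatives are given in the closing section. The labels name no batch.

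The genes named are those that passed, the brightest of each subfamily, genes called in both directions, up to 4 of each partner list by p, and neighbours of the threshold. Results of some genes are not reported here. Others were named after their values were seen. Members and lists were chosen with earlier results of these data known. The fit was tested on simulated data in which 200 of 27022 probe sets were changed. It recovered 17% of changes of 0.5 and 78% of changes of 1 (log2), and 7 of its 102 calls were false. Far fewer probe sets were changed there than passed here, so these rates do not carry over directly. A gene that did not pass may still differ.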

Additional observations from a re-analysis of the deposited data

How the results depend on the processing

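The number of potassium channel genes that passed was 11 of 60. It was 1 (Kcna6) on MAS5 values as log2(value + 16) and 0 as log2(value + 1), where 1.95% and 0.985% of all genes passed. It was 17 (7 higher, 10 lower) with array weights, which gave female replicate 2 a weight of 0.200, and 32.1% of all genes passed. It was 0 with a covariate for the 5' to 3' signal. Leaving out 1 array gave 0 to 14. Without shock replicate 1 it was 0, and 1.17% of all genes passed. The replicate number as a block gave 14 (5 higher, 9 lower), the same 11 among them, where 25.6% of all genes passed. Same-numbered arrays deviated from their group means together at 0.012, 0.207 and 0.154, so the numbers were not taken as pairs, and not every array correlated best with its own number. It was 9 of 85 without a filter (10.5% of all genes), 10 of 44 with the filter at the 60th percentile (22.2%), and, of 60, 12 with median centring (21.0%), 13 when probe sets of a gene were averaged (18.8%) and 11 with the probe set nearest the 3' end (21.0%). The genes were not all the same. Averaging kept 8 of the original 11, without Kcnj9, Kcnj11 and Kcnk3, and its 13 were 4 higher and 9 lower. The setting nearest the 3' end kept 10, without Kcnj9, and was 3 higher and 8 lower. The median difference of 0.03 was -0.0446 without a filter, 0.13 with the filter at the 60th percentile, -0.0403 with the 5' to 3' covariate and -0.0370 when probe sets were averaged. Leaving out 1 array gave -0.0094 (without female replicate 2) to 0.063. None of the 11 genes changed sign under these alternatives. Kcnn1 and Kcnu1 lay below the filter at the 60th percentile and have no value there. The cause of these changes was not tested. The number of arrays limits the precision.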
